A study of Mus musculus with 21 samples.

Results

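The miR-30 family was followed as the 11 rows of the deposited count table that name an arm of miR-30a, miR-30b, miR-30c, miR-30d or miR-30e, out of 1903 named microRNA rows. They comprise 5 arms from the 5′ side of the hairpin (5p) and 6 from the 3′ side (3p), because miR-30c comes from 2 hairpins with 1 shared 5p sequence and separate 3p arms. All 11 passed the filter on low counts, which left 561 microRNAs for testing. Each of 21 C57BL/6J mice gave 1 small RNA library, made from frozen left ventricle myocardium. Sham mice (n = 5) had sham surgery and no drug, and TAC mice (n = 5) had transverse aortic constriction, which overloads the left ventricle with pressure, and no drug. TAC+PDE5A-I mice (n = 5) had the same constriction with sildenafil, an inhibitor of phosphodiesterase 5A, and TAC+PDE9A-I mice (n = 6) had it with PF-04449613, an inhibitor of phosphodiesterase 9A. Drugs were given over 4 weeks from 1 week after surgery. The sources used here give neither age, sex nor dose. Tissue was bulk myocardium, so fewer cells of a type and less RNA per cell cannot be told apart in any value below.

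A microRNA hairpin is cut into a duplex whose arms can each be loaded into an Argonaute protein, where bases 2 to 8 of the loaded arm, the seed, pair with target messages. The arm that is mostly loaded is called the guide and the other the passenger. In the miR-30 family the 5p arm is usually the guide. In heart muscle miR-30 is known for targeting the matrix growth factor Ctgf (Ccn2), Beclin 1 in autophagy and, in work on mitochondria, p53. These roles are background and none of them was measured here.

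RefSeq (GRCm38.p6, which may not be the build behind the counts) gave the mature sequence of 7 of the 11 members. The sequences are shown because the 5p arms share 1 seed while the 3p arms do not, and because some arms differ so little that reads can be assigned to the wrong one. The seed is in capitals and each line runs 5′ to 3′.
miR-30a-5p: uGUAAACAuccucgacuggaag
miR-30e-5p: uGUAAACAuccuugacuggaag
miR-30c-5p: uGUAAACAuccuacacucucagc
miR-30a-3p: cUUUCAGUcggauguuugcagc
miR-30e-3p: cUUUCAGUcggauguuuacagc
miR-30c-1-3p: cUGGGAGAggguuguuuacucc
miR-30c-2-3p: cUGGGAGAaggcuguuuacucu

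The 5p arms shown share the seed GUAAACA. miR-30a-3p and miR-30e-3p share UUUCAGU, and miR-30c-1-3p and miR-30c-2-3p share UGGGAGA. Counted from the 5′ end of the first-named arm, miR-30a-5p and miR-30e-5p differ at 1 base (C13U) and so do miR-30a-3p and miR-30e-3p (G18A). miR-30c-1-3p and miR-30c-2-3p differ at 3 bases (G9A, U12C and C22U). Values of these pairs carry the uncertainty of how the authors' counting separated such reads.

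The hairpins with a sequence lie in pairs. Mir30a lies at chr1:23272269-23272339 on the plus strand, where the annotation has no other gene, and Mir30c-2 lies 19361 bases away at chr1:23291701-23291784, over an exon of the long noncoding RNA gene Gm27028. Mir30c-1 at chr4:120769534-120769622 and Mir30e at chr4:120772606-120772697, both on the minus strand, lie 2983 bases apart inside Nfyc, which encodes a subunit of the transcription factor NF-Y, and overlap none of its exons. miR-30c-5p can therefore come from either pair. miR-30b-5p, miR-30b-3p, miR-30d-5p and miR-30d-3p are given by name.

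Sequencing depth and library condition were uneven. Total counts were 3766517 to 7490436 in Sham and 5373960 to 8497792 in TAC, but 1205417 to 3969716 in TAC+PDE5A-I. In TAC+PDE9A-I, library 5 held 1546318 counts and the other 5 held 4785164 to 7532591. The 4 libraries under 2000000 counts (TAC+PDE5A-I 3, 4 and 5 and TAC+PDE9A-I 5) stand apart in many of the values below, so results that rest on them are also given without them. The heart label was checked on marker microRNAs: all 4 cardiac muscle markers had counts in every group, and the liver marker miR-122-5p summed to at most 4.84 CPM in any library. Of the neuron markers, miR-124-3p was at 0 in all and miR-9-5p was at 20.5 to 37.3 CPM in Sham and 3.89 to 24.3 CPM in the other groups. The 3 epithelial markers all had counts and summed to 92.9 to 136 CPM in Sham. Levels are given as CPM, counts relative to the total of the library after TMM scaling between libraries, and 3 counts, the limit that a count of 0 allows, were 0.353 to 2.49 CPM. Counting error alone sets that limit.

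In the Sham ventricle the 5p arms held 10.2% ± 0.646 (SD, n = 5) of all microRNA counts and the 3p arms 0.362% ± 0.0211. miR-30a-5p was highest, at 43062 ± 8233 CPM. miR-30e-5p followed at 28819 ± 5124 CPM, miR-30d-5p at 25496 ± 3424 CPM, miR-30c-5p at 13562 ± 1301 CPM and miR-30b-5p at 2867 ± 391 CPM. All 3p arms were below all 5p arms in mean level. miR-30e-3p measured 2122 ± 206 CPM, miR-30a-3p 1431 ± 176, miR-30c-2-3p 194 ± 30.4, miR-30d-3p 136 ± 15.6, miR-30c-1-3p 113 ± 11.8 and miR-30b-3p 17.3 ± 3.15 CPM. Neighbours in this order had separate ranges in Sham with 2 exceptions. miR-30e-5p and miR-30d-5p overlapped, with 4 of 5 libraries in that order, and miR-30d-3p and miR-30c-1-3p overlapped although 5 of 5 libraries had the same order. A mature microRNA gives 1 read per molecule sequenced and the arms shown are 22 or 23 bases long, so no length scaling was applied.

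**Figure D1:**
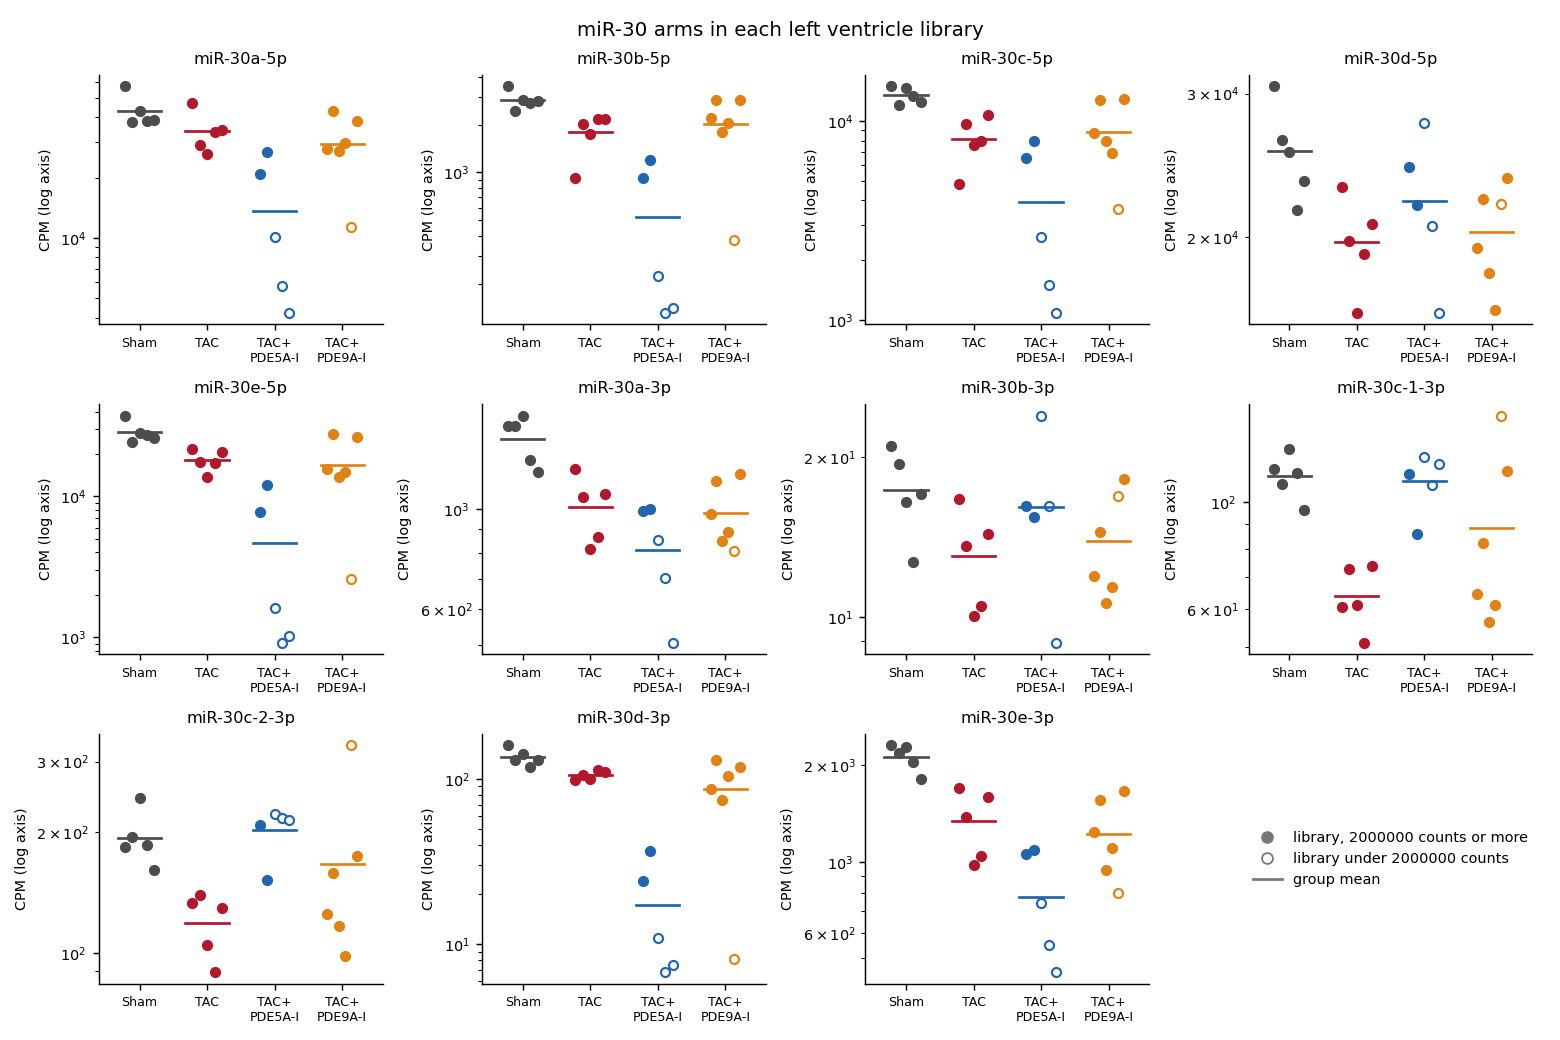
Each panel plots 1 miR-30 arm as TMM-scaled CPM on a log axis for the 21 libraries in 4 groups, with each point a mouse, open points the libraries under 2000000 counts and lines the group means. In the panel of miR-30d-3p the TAC+PDE5A-I libraries sit between 6.74 and 36.7 CPM, under the TAC libraries at 98.2 to 114 CPM, while miR-30d-5p overlaps between all 4 groups.

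The guide to passenger balance differed between hairpins in Sham. miR-30d had the highest mean log2 ratio of 5p to 3p counts and the narrowest spread on that scale, with 180 to 203 counts of 5p per 3p count in the 5 libraries. miR-30b had 125 to 213, miR-30c-1 111 to 130 and miR-30c-2 60.4 to 81.9, where both miR-30c ratios use the same 5p count. miR-30a had 24.8 to 37.5. miR-30e had the lowest ratio, 11.2 to 16.3.

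TAC against Sham asks which microRNAs respond to pressure overload. All 11 miR-30 arms had lower mean levels in TAC, by 0.34 to 0.83 on the log2 scale, and none passed the test. The 5p arms together held 7.64% to 8.79% of counts in TAC and 9.56% to 11.1% in Sham, without overlap. The 3p arms held 0.210% to 0.296% in TAC and 0.333% to 0.385% in Sham, also without overlap. The median log2 fold change of the 11 members was -0.66, beside -0.08 for the 561 microRNAs tested. By edgeR's quasi-likelihood test in a fit of all 4 groups, 0 of 11 were called (adjusted p from 0.0608 to 0.909). An unadjusted p under 0.05 was found for 5 of the 11 and for 88 of the 561 microRNAs tested. Over all microRNAs 0.178% were called lower, 2.14% higher and 2.32% in either direction. DESeq2 called 1 member lower, miR-30c-1-3p (background 2.5% lower).

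Single libraries show how the groups lie. miR-30e-5p, the guide arm of the hairpin inside Nfyc, measured 37571, 24374, 28502, 27383 and 26266 CPM in Sham libraries 1 to 5 and 21713, 17514, 13648, 17281 and 20798 CPM in TAC. Every Sham library was above every TAC library, and the log2 fold change was -0.66 ± 0.61 (SE, adjusted p = 0.811). miR-30c-5p, the guide arm made from both miR-30c hairpins, measured 15082, 12126, 14702, 13368 and 12533 CPM in Sham and 4816, 9649, 7555, 7984 and 10814 CPM in TAC. The groups again did not overlap, and TAC 1 was the lowest. The log2 fold change was -0.73 ± 0.44 (adjusted p = 0.519).

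miR-30c-1-3p, the passenger arm of the miR-30c-1 hairpin inside Nfyc, had the smallest adjusted p. It measured 117, 109, 129, 115 and 96.5 CPM in Sham and 60.7, 72.8, 61.3, 51.2 and 73.8 CPM in TAC. The ranges were separate and the log2 fold change was -0.83 ± 0.23 (adjusted p = 0.0608). miR-30c-2-3p, its counterpart from chromosome 1, measured 161 to 243 CPM (median 186) in Sham and 89.4 to 139 CPM (median 129) in TAC, again without overlap (-0.70 ± 0.26, adjusted p = 0.164). miR-30e-3p measured 1805 to 2305 CPM in Sham and 974 to 1692 CPM in TAC (-0.67 ± 0.25, adjusted p = 0.170).

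Of the 11 members, 7 had no overlap between TAC and Sham, all lower in TAC: miR-30b-5p, miR-30c-5p, miR-30e-5p, miR-30c-1-3p, miR-30c-2-3p, miR-30d-3p and miR-30e-3p. Over all microRNAs 8.56% were lower and 8.38% higher without overlap. miR-30a-5p overlapped, with Sham 1 at 57332 CPM and the other Sham libraries at 37879 to 42980, and TAC 1 at 46850 CPM above 4 of the 5 Sham libraries (log2 fold change -0.34 ± 0.41). miR-30d-5p overlapped too, at 21608 to 30669 CPM in Sham and 16141 to 23019 CPM in TAC (-0.37 ± 0.17, adjusted p = 0.282). The remaining overlapping arms, miR-30a-3p and miR-30b-3p, had log2 fold changes of -0.50 ± 0.19 and -0.41 ± 0.24.

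The spread in this fit includes the drug libraries. With Sham and TAC alone, 5 members were called lower (miR-30c-1-3p, miR-30c-2-3p, miR-30c-5p, miR-30e-3p and miR-30e-5p, adjusted p from 0.00320 to 0.0380), beside 4.54% of all microRNAs called lower. Without the 4 libraries under 2000000 counts, none of which is a Sham or TAC library, 7 were called lower, those 5 with miR-30a-3p and miR-30b-5p (adjusted p from 0.0112 to 0.0461; background 4.39%). Leaving out TAC+PDE5A-I 3, TAC+PDE5A-I 5 or TAC+PDE9A-I 3 gave 1 member called lower each, and leaving out TAC+PDE9A-I 5 gave 2. All 11 stayed negative with scaling by total counts, upper quartile or DESeq2 size factors. Scaling by total counts moved the median of all microRNAs up by 0.17 and gave member values of -0.19 to -0.66.

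No shift between the arms of a hairpin was detected with TAC. The log2 of the 5p to 3p ratio changed by -0.31 to 0.16, and limma called 0 of 6 hairpins (0 with an unadjusted p under 0.05, 0 by the exact permutation test), beside 0% of the 190 hairpins with both arms tested in either test. The 95% intervals were widest for miR-30b, -1.64 to 1.03, and narrowest for miR-30a, -0.46 to 0.78. TAC 1 had the lowest miR-30b ratio of its group, 54.7 against 148 to 206 in the other 4 libraries, with miR-30b-5p at 919 CPM against 1737 to 2181.

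Within the 5p pool, the balance of the near twins miR-30a-5p and miR-30e-5p lay further toward miR-30a-5p in TAC. Their count ratio was 1.40 to 1.55 in Sham and 1.65 to 2.16 in TAC, without overlap. Because the arms differ at 1 base, this ratio depends on how reads were assigned. miR-30e-5p made up 25.3% ± 1.11 of the 5p pool in Sham and 22.1% ± 0.937 in TAC (SD, n = 5 each), and miR-30d-5p 22.5% ± 1.83 and 24.2% ± 0.827. Some marker lists also differed between these groups. The 4 fibroblast and stromal microRNAs, all with counts, summed to 4783 to 5395 CPM in Sham and 10984 to 24963 CPM in TAC. The neuron marker miR-9-5p was lower without overlap, at 20.5 to 37.3 and 8.28 to 17.9 CPM. The 4 cardiac muscle microRNAs summed to 139510 to 177835 CPM in Sham and 77720 to 144036 CPM in TAC, with overlap. Endothelial sums overlapped (32700 to 49225 and 25780 to 42969 CPM), as did smooth muscle (73453 to 118799 and 70058 to 143366 CPM), leukocyte, erythroid and epithelial ones. The part of these markers in the miR-30 values was not tested.

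**Figure D2:**
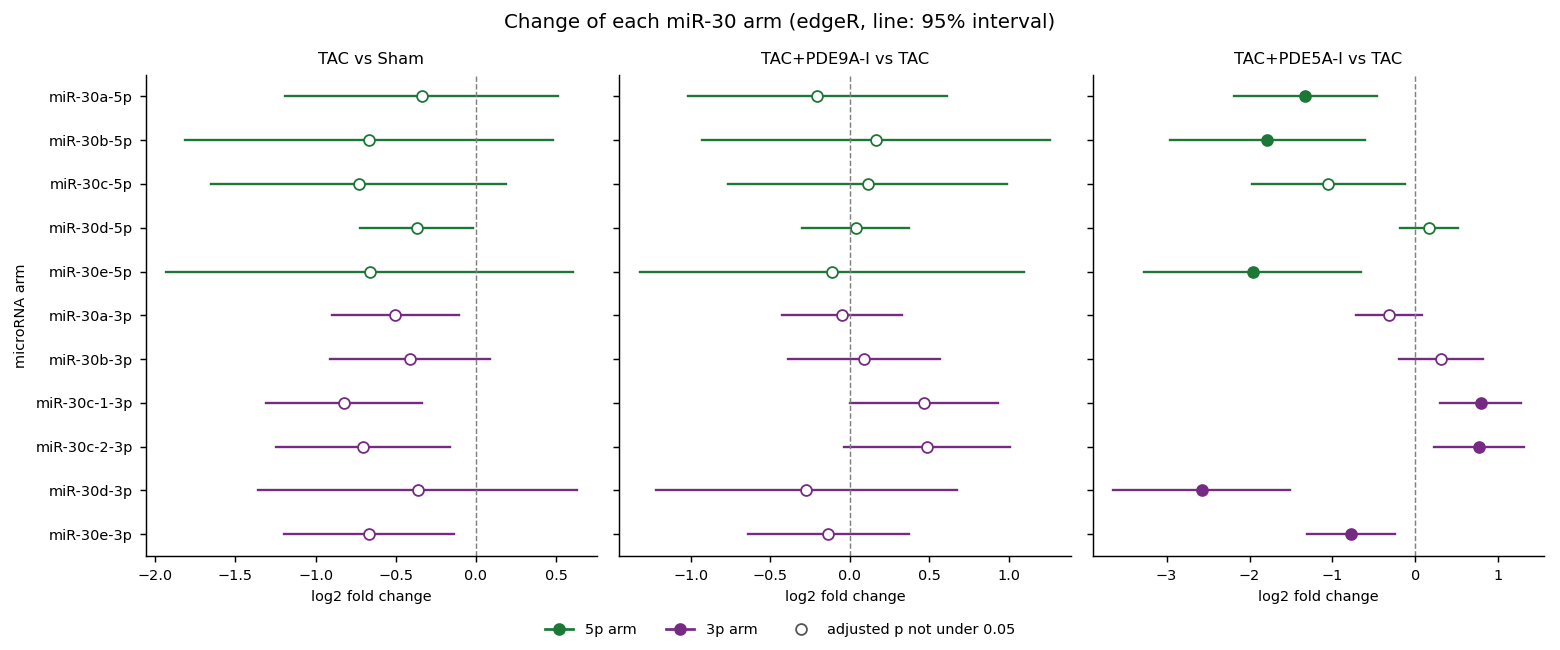
Points are the log2 fold change of each miR-30 arm in 3 comparisons (each panel has its own scale) with the 95% interval as a line, 5p arms green and 3p arms purple, filled where the adjusted p was under 0.05. All 11 points lie below 0 for TAC against Sham and are open; for TAC+PDE5A-I against TAC, 5 are filled below 0 and 2 above.

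TAC+PDE9A-I against TAC asks what the phosphodiesterase 9A inhibitor did in the overloaded heart. No miR-30 arm was called. The log2 fold changes were -0.27 to 0.49 with a median of 0.04 (-0.04 over all microRNAs), and the adjusted p was 0.991 for all 11 by edgeR. An unadjusted p under 0.05 was found for 1 of the 11 and for 16 of the 561 microRNAs tested. DESeq2 also called 0 members (background 0.178%), and 0% of the 561 microRNAs were called by edgeR or had separate ranges. Both drug groups are set against the same 5 TAC libraries that enter TAC against Sham.

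miR-30c-1-3p and miR-30c-2-3p had the highest values of the family in this comparison. miR-30c-1-3p measured 64.4, 82.5, 56.4, 61.3, 151 and 116 CPM in TAC+PDE9A-I libraries 1 to 6, overlapping the TAC range of 51.2 to 73.8 (log2 0.47 ± 0.22, interval 0.00104 to 0.93). miR-30c-2-3p measured 125, 159, 117, 98.1, 329 and 175 CPM, where TAC spans 89.4 to 139 (0.49 ± 0.25, interval -0.03 to 1.01). Library 5, the shallow one, was highest for both. Without the 4 libraries under 2000000 counts the values were 0.27 and 0.20.

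For the abundant 5p arms the intervals leave room for changes of some size. miR-30a-5p measured 11365 to 43145 CPM in TAC+PDE9A-I (median 28702) and 26158 to 46850 CPM in TAC (interval of the log2 fold change -1.02 to 0.61). miR-30d-5p had the narrowest interval of the 5p arms, -0.30 to 0.37. Arm ratios were likewise not called for any of 6 hairpins by limma (0 with an unadjusted p under 0.05, 0 by the exact permutation test), beside 0.526% of the 190 hairpins called by limma and 0% by permutation. Library 5 stood apart within the group in all 6 ratios: 14.1 for miR-30a, 21.9 for miR-30b, 24.0 for miR-30c-1, 11 for miR-30c-2, 3.24 for miR-30e and 2603 for miR-30d. In the other 5 libraries the miR-30d ratio was 157 to 243.

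TAC+PDE5A-I against TAC sets overloaded hearts with sildenafil against those without drug. Every TAC+PDE5A-I library (1205417 to 3969716 counts) was shallower than every TAC library (5373960 to 8497792). The drug and library depth therefore cannot be told apart in this comparison, also without the 4 libraries under 2000000 counts. The arms of the family went apart: 5 fell, 2 rose and 4 did not pass. The 2 arms of the miR-30d hairpin parted most, with miR-30d-3p 5.97-fold lower and miR-30d-5p not passing the test. The arms that fell were miR-30a-5p (2.51-fold), miR-30b-5p (3.45-fold), miR-30e-5p (3.89-fold), miR-30e-3p (1.71-fold) and miR-30d-3p, and the passenger arms miR-30c-1-3p (1.73-fold) and miR-30c-2-3p (1.70-fold) rose. In the same test 24.8% of all microRNAs were called lower, 21.6% higher and 46.3% either way, so a called member is common in this comparison. The median of the members was -0.78 and that of all microRNAs -0.31.

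miR-30d-3p, the passenger arm of miR-30d, measured 98.2, 105, 99.5, 114 and 111 CPM in TAC libraries 1 to 5 and 23.9, 36.7, 10.9, 6.74 and 7.46 CPM in TAC+PDE5A-I libraries 1 to 5. The 5 sildenafil libraries were all below the 5 TAC libraries, and libraries 3 to 5, the shallow ones, rest on 15, 10 and 10 counts. The log2 fold change was -2.58 ± 0.51 (adjusted p = 0.00149), and the call held when any 1 of the 21 libraries was left out (adjusted p from 5.883e-05 to 0.00890). Without the 4 libraries under 2000000 counts it was -1.78 (adjusted p = 6.619e-05), which then compares 2 sildenafil libraries of 80 and 164 counts with 5 TAC libraries. It was the only member called in that fit, which called 12.3% of microRNAs lower and 18.5% either way.

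miR-30d-5p, the guide arm of the same hairpin, measured 23019, 19747, 16141, 19069 and 20721 CPM in TAC and 24402, 21905, 27571, 20626 and 16132 CPM under sildenafil. The ranges overlapped and the log2 fold change was 0.16 ± 0.17 (adjusted p = 0.447, 95% interval -0.19 to 0.52). Upper-quartile scaling gave 0.65, which passed the test, and DESeq2 size factors -0.030. The ratio of the arms does not depend on scaling. It was 162 to 234 in TAC and 1013, 596, 2455, 2914 and 2060 in the sildenafil libraries, so it was higher in all 5.

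The remaining guide arms were lower in the sildenafil group, most of all in its shallow libraries. miR-30a-5p measured 46850, 29144, 26158, 33637 and 34381 CPM in TAC and 20821, 26888, 10052, 5785 and 4231 CPM with sildenafil. Libraries 3 to 5 were lowest, and library 2 reached into the TAC range (log2 -1.33 ± 0.41, adjusted p = 0.0152). miR-30e-5p measured 7774, 12049, 1622, 915 and 1012 CPM with sildenafil, all under the lowest TAC library at 13648 (-1.96 ± 0.63, adjusted p = 0.0167). miR-30b-5p measured 919, 1204, 224, 131 and 140.2 CPM, where TAC spans 919 to 2181 (-1.78 ± 0.56, adjusted p = 0.0159). miR-30c-5p measured 6543, 7976, 2611, 1504 and 1085 CPM and did not pass (-1.05 ± 0.44, adjusted p = 0.0586). Without the 4 libraries under 2000000 counts none of these 4 guide arms was called: miR-30a-5p was at -0.49 (adjusted p = 0.162), miR-30b-5p at -0.76 (0.0737), miR-30c-5p at -0.16 (0.749) and miR-30e-5p at -0.86 (0.0501). Leaving out TAC+PDE5A-I 3 alone took the count of called members from 7 to 3, and miR-30b-5p and miR-30e-5p then did not pass (adjusted p = 0.0544 and 0.0559).

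Among the 3p arms the directions were mixed. miR-30c-1-3p measured 114, 86.1, 124, 109 and 120.1 CPM with sildenafil, all above the TAC range of 51.2 to 73.8 CPM and in the Sham range of 96.5 to 129 CPM except library 2 (log2 0.79 ± 0.23, adjusted p = 0.0114). miR-30c-2-3p measured 208, 152, 222, 217 and 214 CPM, all above the TAC range of 89.4 to 139 CPM (0.77 ± 0.26, adjusted p = 0.0211). In this comparison 13.2% of all microRNAs were higher without overlap and 20.7% lower, beside 2 and 2 of the 11 members. Both rises lost their call without the 4 shallow libraries (0.66 and 0.61, adjusted p = 0.0611 and 0.0667). They also lost it without the filter on low counts (0.55 and 0.53, adjusted p = 0.0745 and 0.119), where 5 members were called lower and 0 higher (background 17.2% and 6.97%). DESeq2 size factors ended the call of miR-30c-2-3p (0.58, adjusted p = 0.0651). The call of miR-30c-1-3p also ended without Sham 5, TAC 3, TAC+PDE9A-I 2 or TAC+PDE5A-I 1, 3, 4 or 5 (adjusted p up to 0.0853). That of miR-30c-2-3p ended without any of these libraries or TAC 4, TAC+PDE5A-I 2 or TAC+PDE9A-I 3 (up to 0.139).

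miR-30e-3p measured 1057, 1089, 745, 549 and 452 CPM with sildenafil, where TAC spans 974 to 1692 (log2 -0.78 ± 0.25, adjusted p = 0.0184). Only libraries 1 and 2 reached the TAC range, and without the shallow libraries the value was -0.30 (adjusted p = 0.405). Its call ended with the 2 groups alone (adjusted p = 0.0516) and with upper-quartile scaling (-0.34, adjusted p = 0.202). miR-30a-3p, at 505 to 997 CPM, did not pass (-0.32 ± 0.19, adjusted p = 0.172). miR-30b-3p, at 8.95 to 23.9 CPM and on 12 to 69 counts, did not pass either (0.31 ± 0.24, adjusted p = 0.310).

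The split between higher and lower members depends on scaling. Upper-quartile scaling called 4 lower and 4 higher (background 19.6% lower, 30.7% higher) and DESeq2 size factors called 7 lower and 1 higher (background 27.6% and 16.2%). These scalings moved the median of all microRNAs by 0.46 and by -0.15. miR-30a-5p, miR-30b-5p, miR-30e-5p and miR-30d-3p were lower and called under TMM and both of these, and miR-30c-1-3p was higher and called under all 3.

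**Figure D3:**
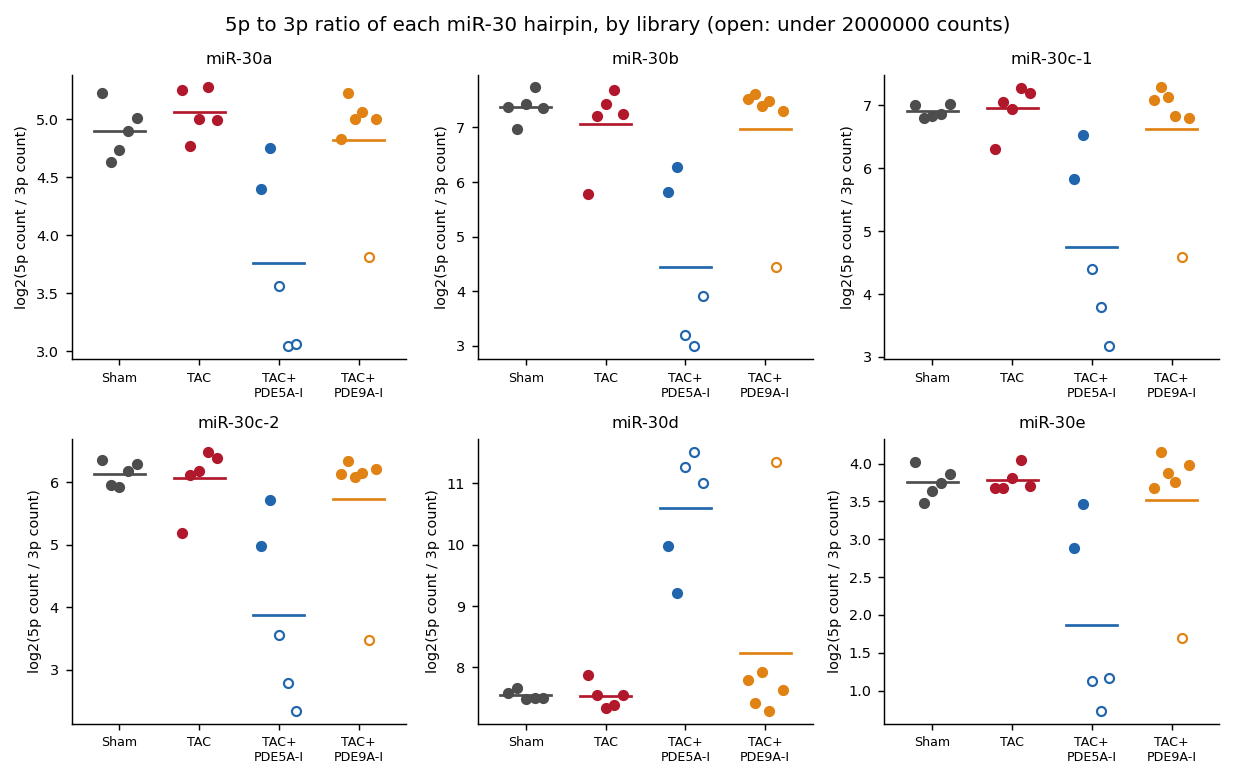
Each panel plots the log2 ratio of 5p to 3p counts of 1 hairpin for the 21 libraries, with lines at the group means and open points for libraries under 2000000 counts. In TAC+PDE5A-I and in TAC+PDE9A-I library 5 the ratios of miR-30a, miR-30b, miR-30c-1, miR-30c-2 and miR-30e mostly lie low and that of miR-30d lies high, at 9.22 to 11.5. For miR-30b, miR-30c-1 and miR-30c-2 the TAC+PDE5A-I and TAC libraries overlap.

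Arm ratios need no scaling between libraries, and in these limma called 6 of 6 hairpins between TAC+PDE5A-I and TAC. The log2 ratio was lower for miR-30a (-1.30 ± 0.30), miR-30b (-2.63 ± 0.64), miR-30c-1 (-2.21 ± 0.54), miR-30c-2 (-2.19 ± 0.57) and miR-30e (-1.91 ± 0.46) and higher for miR-30d (3.06 ± 0.58, limma adjusted p from 0.00104 to 0.00531 over the 6). Ranges of the ratio overlapped between the groups for miR-30b, miR-30c-1 and miR-30c-2. The exact permutation test called 5 of the 6 (background 32.1%), without miR-30b (adjusted p = 0.0665). Of all 190 hairpins 41.1% were called, 21.6% lower and 19.5% higher. miR-30e shows the size of it: the 5p arm had 12.7 to 16.5 counts per 3p count in TAC and 7.36, 11.1, 2.18, 1.66 and 2.24 in the sildenafil libraries. Libraries 1 and 2 lay between the TAC libraries and the shallow ones. Without the 4 shallow libraries 4 of 6 were called (background 22.2%): miR-30b (-1.02), miR-30c-1 (-0.77) and miR-30e (-0.61) lower and miR-30d higher (2.06, adjusted p = 9.395e-07). miR-30a (-0.49, adjusted p = 0.0659) and miR-30c-2 (-0.73, adjusted p = 0.0630) were then not called.

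The make-up of the 5p pool turned over in the same libraries. miR-30d-5p made up 40.4%, 31.3%, 65.5%, 71.2% and 71.4% of the 5p counts in TAC+PDE5A-I libraries 1 to 5, where it was 23.3% to 25.3% in TAC. miR-30e-5p made up 3.16% to 17.2% where it was 20.9% to 23.4% in TAC. TAC+PDE9A-I 5 was alike, with 55.0% miR-30d-5p, and the other 5 libraries of its group held 20.4% to 26.3%. The near twins miR-30a-5p and miR-30e-5p had a count ratio of 2.23 to 6.32 with sildenafil and 4.40 in TAC+PDE9A-I 5. Sham 4 held fewer counts (3766517) than TAC+PDE5A-I 2 (3969716), with a miR-30d arm ratio of 182 against 596. Its miR-30d-5p share was 20.9% against 31.3%. In the TAC+PDE5A-I libraries and TAC+PDE9A-I 5, depth, the arm ratios and pool make-up moved together, and the part of depth was not tested. Their endothelial microRNAs (2 of 2 with counts) did too, at 999 to 15676 CPM in TAC+PDE5A-I and 25780 to 42969 CPM in TAC, as did the smooth muscle ones (2 of 2), at 4830 to 43177 and 70058 to 143366 CPM. The fibroblast and stromal markers (4 of 4) summed to 1632 to 4545 CPM in TAC+PDE5A-I and 10984 to 24963 CPM in TAC, and the erythroid ones (3 of 3) to 23.1 to 416 and 445 to 1211 CPM. The epithelial ones (3 of 3) summed to 11.5 to 68.9 and 74.7 to 137 CPM, so that all these lists were lower without overlap. The cardiac muscle ones (4 of 4) summed higher with overlap, at 140605 to 268930 and 77720 to 144036 CPM. That sum does not show whether its members moved together. Tested singly by edgeR, miR-133a-3p averaged 189579 CPM in TAC+PDE5A-I and 107542 in TAC (log2 0.82, adjusted p = 0.0143). miR-1a-3p went the other way, at 395 and 4196 CPM (log2 -3.41, adjusted p = 0.00632). miR-208a-3p and miR-499-5p, which complete the list, are not given singly here. miR-133b-3p, which is outside the list, did not pass (log2 0.23, adjusted p = 0.443). The leukocyte ones (5 of 5) overlapped, at 2180 to 3150 and 1397 to 2523 CPM. The part of these marker lists in the miR-30 values was not tested.

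Among the 7 members with a sequence, the GC content of the mature arm rose along with the sildenafil change, though not in strict order. It was 40.9% in miR-30e-5p (log2 fold change -1.96) and 43.5% in miR-30c-5p (-1.05). It was 45.5% in miR-30a-5p and miR-30e-3p (-1.33 and -0.78) and 50% in miR-30a-3p and miR-30c-2-3p (-0.32 and 0.77). miR-30c-1-3p had the highest GC content, 54.5%, and the highest change, 0.79. The 5p arms among these hold 40.9% to 45.5% and the 3p arms 45.5% to 54.5%, so GC content and arm go together. miR-30d-3p, which had the lowest change of the family (-2.58), has no sequence here. The 7 members are too few of the 11 for a check, and the part of GC content in the changes was not tested.

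**Figure D4:**
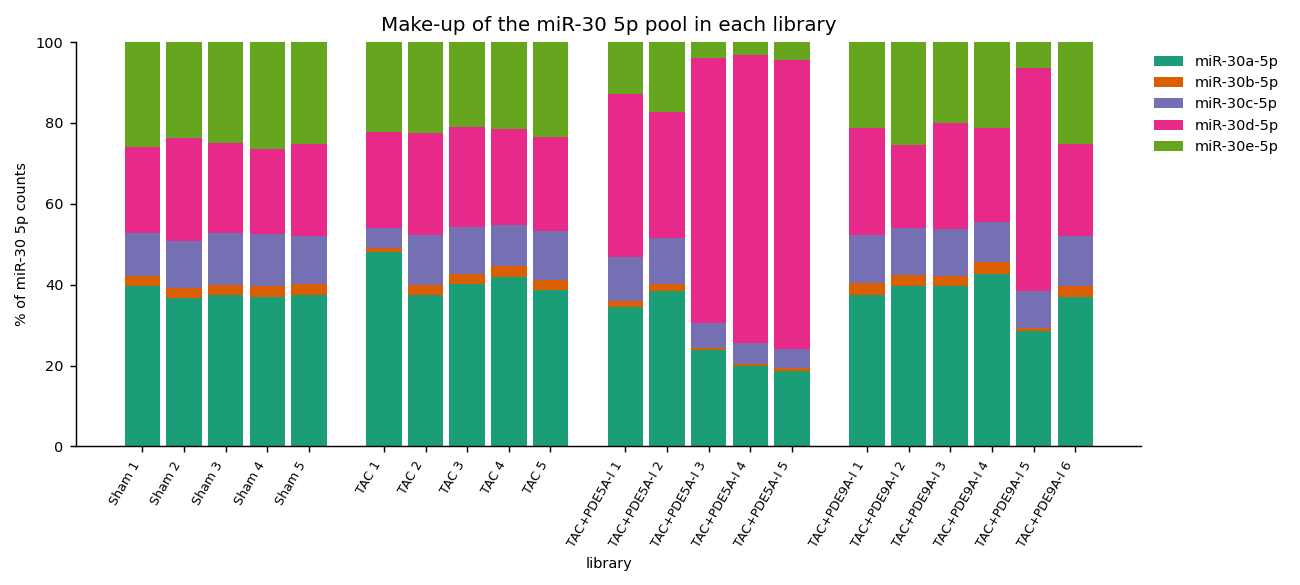
Stacked bars give the share of each 5p arm in the miR-30 5p counts of each of the 21 libraries, in percent. miR-30d-5p takes 20.4% to 26.3% in the Sham, TAC and TAC+PDE9A-I libraries other than TAC+PDE9A-I 5, and 31.3% to 71.4% in TAC+PDE5A-I and that library.

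TAC+PDE5A-I against TAC+PDE9A-I sets the inhibitors side by side. The sources used here give no dose, so it compares the groups as treated and not the compounds at matched dose. Depth differed too, at 1205417 to 3969716 counts in TAC+PDE5A-I and 4785164 to 7532591 in TAC+PDE9A-I other than library 5. With sildenafil 6 arms were lower: miR-30a-5p, miR-30b-5p, miR-30c-5p, miR-30e-5p, miR-30d-3p and miR-30e-3p (log2 -0.64 to -2.31, adjusted p from 0.00434 to 0.0466), and none was higher. With upper-quartile scaling 3 were lower and 1 was higher (background 16% and 24.6%): miR-30d-5p was then called at 0.50 (adjusted p = 0.0418), and miR-30a-5p, miR-30c-5p and miR-30e-3p lost their calls (adjusted p = 0.0634, 0.0788 and 0.316). Over all microRNAs 19.6% were called lower, 15.2% higher and 34.8% either way. None of the 11 had separate ranges in the 2 groups (background 0.713% lower and 1.25% higher). TAC+PDE9A-I 5 lay among the sildenafil libraries for the arms that were lower. miR-30c-5p and miR-30e-3p overlapped in deeper libraries too. For miR-30c-5p, TAC+PDE9A-I 3 and 4 (7916 and 6947 CPM) lay under TAC+PDE5A-I 2 (7976 CPM). For miR-30e-3p, TAC+PDE9A-I 3 (945 CPM) lay under TAC+PDE5A-I 1 and 2 (1057 and 1089 CPM). The call of miR-30d-3p, at -2.31 ± 0.49, held without any 1 library (adjusted p up to 0.0226) and without the 4 shallow ones (-1.77, adjusted p = 8.098e-05). With these 2 groups alone 0 of 11 were called, as were 0% of all microRNAs. Without the 4 shallow libraries 3 were called (miR-30b-5p, miR-30d-3p and miR-30e-5p; background 12.7% lower). Single libraries decided other calls (adjusted p up to 0.122 without them). The call of miR-30b-5p ended without TAC+PDE5A-I 3, that of miR-30e-5p without TAC+PDE5A-I 3, 4 or 5 or TAC+PDE9A-I 2, 4 or 6, and that of miR-30a-5p without any of these or TAC+PDE9A-I 1. The call of miR-30c-5p ended without 15 of the 21 libraries (any Sham library, TAC 3 or 4, TAC+PDE5A-I 3, 4 or 5 or TAC+PDE9A-I 1, 2, 3, 4 or 6). That of miR-30e-3p ended without 14 (Sham 1 to 4, TAC 2, 4 or 5, TAC+PDE5A-I 3, 4 or 5 or TAC+PDE9A-I 1, 2, 4 or 6).

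Arm ratios differed between the drug groups for 6 of 6 hairpins in limma (background 28.9%, with 16.8% lower and 12.1% higher) and for 0 by the exact permutation test adjusted over all hairpins (background 0%). For miR-30d-5p the difference between the drug groups was 0.13 on the log2 scale, with an interval of -0.21 to 0.46. For miR-30c-1-3p it was 0.32 (interval -0.14 to 0.79). These intervals do not show that the groups were alike.

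The arms differed in how closely they varied together. miR-30c-1-3p and miR-30e-3p, both from inside Nfyc, had a Pearson r of -0.00197 on log2 CPM over the 21 libraries and 0.471 over the 16 of Sham, TAC and TAC+PDE9A-I. Over the 21, miR-30c-1-3p and miR-30c-2-3p, from different chromosomes but with 1 seed, had 0.951. miR-30a-5p and miR-30e-5p, which differ at 1 base, had 0.983. The 2 arms of miR-30e had 0.908, those of miR-30a 0.848, those of miR-30d 0.111 and those of miR-30b -0.0242. From the chromosome 1 pair, miR-30c-2-3p had -0.421 with miR-30a-5p and 0.0533 with miR-30a-3p. Over the 16 these were -0.175 and 0.469. The points differ in depth and library condition, and how reads of near-identical arms were assigned is not given in the sources used here. Over the 16 libraries, miR-30a-5p and miR-30e-5p had r = 0.967, and miR-30a-3p and miR-30e-3p had 0.977. Outside the family, the microRNAs most like miR-30a-5p were miR-192-5p (r = 0.950), let-7f-5p (0.947) and miR-1a-3p (0.947). Those most like miR-30e-3p were miR-378c (0.914), miR-338-3p (0.908) and miR-690 (0.879).

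As a setting, 10 other microRNAs of heart muscle and matrix were read, from the miR-1, miR-133, miR-29, miR-26, miR-378 and miR-150 families. In TAC against Sham 0 of 10 were called, with a median log2 fold change of -0.48, and none was called in TAC+PDE9A-I against TAC (median -0.06). In TAC+PDE5A-I against TAC 5 of 10 were lower, 2 higher and 3 did not pass (median -0.76), beside the 24.8% lower and 21.6% higher over all microRNAs.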

How the data were processed

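The authors deposited raw read counts per mature microRNA for 21 libraries, of which 1903 of 25958 lines carry a name and 24055 blank lines were left out. The submitters' processing notes name Bowtie 1.1.1, cutadapt 1.8, DESeq 1.26.0 and CASAVA 1.8.4 with no roles. Their genome build is not given in the sources used here, nor is the annotation. Per the labels' protocols, RNA was extracted with Qiazol and miRNeasy and libraries were made with the TruSeq Small RNA kit. No unique molecular identifiers are described, so the limit given for a count of 0 covers counting error only, while the 95% intervals of changes come from the spread between mice.

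Counts were tested in R 4.3.3 with edgeR 4.0.16 (filterByExpr by group, TMM, robust quasi-likelihood F test, all 4 groups in 1 fit, Benjamini-Hochberg over 561 microRNAs, threshold 0.05). Log2 ratios of 5p to 3p counts (0.5 added) were tested with limma 3.58.1 over 190 hairpins, with an exact permutation test as an alternative. The scripts were tested on simulated counts. DESeq2 1.42.0 and other scalings, filters and library sets were alternatives, and the set without libraries under 2000000 counts was chosen after seeing the data. All 11 members are named. Likeness used microRNAs of at least 10 CPM. Sequences came from RefSeq and gene overlaps from GENCODE, both on GRCm38. The members and lists were chosen with earlier results of these data known.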

Additional observations from a re-analysis of the deposited data

Results flagged for a closer look

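Of 68 sets of values (1 arm or arm ratio in 1 group) that were looked at, 11 had 1 library far from the rest of its group. Chance gives about 1 in 20 in independent sets. These sets are not independent, since the ratios are built from the same arms, so the 11 cannot be weighed against that rate. TAC+PDE9A-I 5, a library under 2000000 counts, accounts for 7 of the 11. It had the highest miR-30c-2-3p level of its group, 329 CPM against 98.1 to 175, and the highest log2 arm ratio of miR-30d, 11.3 against 7.29 to 7.92. Its log2 arm ratios were the lowest of the group for miR-30a (3.81), miR-30b (4.45), miR-30c-1 (4.59), miR-30c-2 (3.46) and miR-30e (1.70), where the other 5 libraries had 4.83 to 5.22, 7.29 to 7.62, 6.80 to 7.28, 6.08 to 6.34 and 3.67 to 4.15.

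TAC 1 had the lowest log2 arm ratio of its group for miR-30b, 5.77 against 7.21 to 7.69, and for miR-30c-2, 5.18 against 6.12 to 6.48. Sham 1 had miR-30a-5p at 57332 CPM against 37879 to 42980 CPM in the other Sham libraries. TAC+PDE5A-I 2 had miR-30c-2-3p at 152 CPM against 208 to 222 CPM in the other 4.

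miR-30f, which is outside the 5 lettered members followed here, was at 0 in 19 of 21 libraries, Sham included. It had 15 counts in TAC+PDE5A-I 2 and 34 counts in TAC+PDE9A-I 4.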

How the results depend on the processing

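For TAC against Sham the 0 called members became 1 with DESeq2 size factors and with DESeq2's test, 5 with the 2 groups alone, 7 without the 4 libraries under 2000000 counts, and 0 to 2 when 1 library was left out. For TAC+PDE5A-I against TAC the 7 called became 1 without the 4 shallow libraries and 3 to 8 when 1 library was left out. For TAC+PDE5A-I against TAC+PDE9A-I the 6 called became 0 with the 2 groups alone, 3 with ear tag range added as a covariate, 3 without the shallow libraries and 1 to 7 when 1 library was left out. It was 3 without TAC+PDE9A-I 1, 2 each without TAC+PDE9A-I 2, 4 or 6 or TAC+PDE5A-I 4 or 5, and 1 without TAC+PDE5A-I 3. The 6 arm ratios called in that comparison became 0 by the exact permutation test, 0 with the 2 groups alone and 5 to 6 when 1 library was left out, where the miR-30c-2 ratio was not called without TAC+PDE5A-I 4 or 5. For the ear tag covariate and for leaving out 1 library, the share of all microRNAs called is not given here. Member counts from those fits therefore have no background beside them. The cause of the changes in count was not tested.

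Signs turned only in values that were not called in the fit of all 4 groups. For miR-30a-3p these were 0.031 and 0.0030 (TAC+PDE9A-I against TAC, upper-quartile scaling and total counts) and, with upper-quartile scaling, 0.13 (TAC+PDE5A-I against TAC) and 0.10 (against TAC+PDE9A-I). For miR-30d-5p, TAC+PDE5A-I against TAC gave -0.030 (DESeq2 size factors and test) and -0.064 (no filter). Against TAC+PDE9A-I it gave -0.064 (DESeq2 size factors and test), -0.021 (no filter) and -0.0085 (2 groups alone), and TAC+PDE9A-I against TAC gave -0.043 (no filter) and -0.010 (2 groups alone). With the ear tag covariate the arm ratio changes for TAC against Sham were -0.055 (miR-30c-1), 0.043 (miR-30d) and -0.067 (miR-30e), and TAC+PDE9A-I against TAC gave -0.091 for miR-30b-5p and -0.083 for miR-30c-5p. Without the 4 shallow libraries, TAC+PDE9A-I against TAC gave 0.025 for miR-30a-3p, 0.14 for miR-30e-5p and arm ratio changes of 0.40 (miR-30b), 0.067 (miR-30c-1), 0.11 (miR-30c-2) and 0.10 (miR-30e).

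Leaving out 1 library gave ranges across 0 as follows. For TAC against Sham the arm ratio changes were -0.46 to 0.018 (miR-30b), -0.029 to 0.21 (miR-30c-1), -0.17 to 0.15 (miR-30c-2), -0.092 to 0.041 (miR-30d) and -0.036 to 0.099 (miR-30e). For TAC+PDE9A-I against TAC the ranges were -0.18 to 0.030 for miR-30a-3p, -0.057 to 0.19 for miR-30b-3p, -0.074 to 0.26 for miR-30c-5p, -0.091 to 0.098 for miR-30d-5p and -0.36 to 0.11 for miR-30e-5p. The arm ratio changes were -0.43 to 0.40 (miR-30b), -0.50 to 0.067 (miR-30c-1), -0.56 to 0.11 (miR-30c-2) and -0.39 to 0.10 (miR-30e). For TAC+PDE5A-I, miR-30b-3p gave -0.085 to 0.41 against TAC and -0.11 to 0.23 against TAC+PDE9A-I, and miR-30d-5p -0.14 to 0.23 and -0.12 to 0.13.

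The labels do not say whether replicate numbers pair the mice. Of 30 same-number pairs, 7 had a correlation of deviations over 0.1 (median 0.0017, highest 0.351). Pairs of different number were not set beside them, so these values cannot decide it. With the replicate block, 0 members were called for TAC against Sham, 0 for TAC+PDE9A-I against TAC, 8 for TAC+PDE5A-I against TAC and 4 for TAC+PDE5A-I against TAC+PDE9A-I. In the second of these miR-30b-3p (-0.013), miR-30b-5p (-0.20), miR-30c-5p (-0.20) and miR-30d-5p (-0.035) turned negative. The share of all microRNAs called with the replicate block is not given here, so its counts of called members have no background beside them. The GC correction was not run: 63.6% of the members have a sequence in the table used, so a GC check is void. In the shallow libraries miR-30d-3p and miR-30b-3p rest on 10 to 33 counts, which limits their precision.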
